A study of Macaca mulatta with 17 samples.

Results

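Complement components and regulators were followed in the fetal rhesus macaque uterus through 9 genes, namely C1R, C1S, SERPING1, C3, CFB, CFD, CFI, CD55 and C7. A gene was taken where the description of a probe on the array named it, and a gene with several probes was to be given by the probe of highest mean signal. All 9 genes were found, among 17231 gene symbols named in the descriptions of 20217 probes, each with 1 probe, so no choice between probes had to be made. The description gave the listed symbol for 5 genes, an older symbol for 2 (BF for CFB and DF for CFD) and only a full name for 2 (C1R and CFI, whose descriptions call the transcript similar to the human precursor). All 9 probes were well above background on each of the 17 arrays, so no member was lost to a filter on low signal.

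RNA from single uteri of female fetuses was hybridized to 17 single-color arrays on 6 slides, 1 array per fetus, and the values are linear scanner intensities that were put on a log2 scale here. The GD100 (gestational day 100) control group held 5 fetuses whose dams received ethanol vehicle in a daily fruit treat, and the GD100 BPA-exposed group held 5 fetuses whose dams received 400 µg of deuterated bisphenol A (BPA) per kg in that treat each day from day 50. The GD165 groups were dosed in the same way from day 100 until birth at day 165 to 168 and held 4 control and 3 BPA-exposed fetuses. Uteri at GD100 came from caesarean deliveries and those at GD165 from vaginal deliveries, so age, route of delivery and the hours of life after birth cannot be told apart. Uteri of stillborn fetuses were left out of the array data. Each RNA came from one side of the organ, cut lengthwise from fundus to cervix, and in such bulk tissue more cells of a type and more RNA per cell cannot be told apart.

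Array quality was even, with 83.8 to 89.0% of an array's spots well above background, upper-quartile signals of 5524 to 7319, and Pearson's r over probes of 0.974 to 0.995 in 136 pairs of arrays. The labelled tissue was checked against marker lists. All 9 smooth muscle markers were well above background on every array of every group, as were 8 of the 9 matched stromal markers, the exception being the progesterone receptor PGR, which was below that mark on all 10 arrays at GD100 and above it on 1 of 4 control and 2 of 3 BPA-exposed arrays at GD165. Skeletal muscle markers stood apart on 2 arrays, where their mean log2 level was 12.99 (GD165 control replicate 5) and 12.23 (GD165 BPA replicate 5) against 7.92 to 10.32 on the other arrays at GD165. Without these 2 arrays 4 of the 9 complement genes were called between the ages in controls and 2 in BPA-exposed fetuses, against 4 and 3 with them. Of all 20217 probes, 2276 and 1245 were called without these arrays, against 2328 and 1956 with them. C7 in controls (limma adjusted p = 0.010) and SERPING1 in BPA-exposed fetuses (adjusted p = 0.015) lost their calls, and CD55 in controls gained one (adjusted p = 0.006).

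Complement is a cascade of plasma and tissue proteins that marks microbes, immune complexes and dying cells. The classical route starts when C1q engages the proteases C1r and C1s, the alternative route is amplified by factor B and factor D acting on C3, and both routes end in the membrane attack complex, of which C7 is a part. C1 inhibitor (the product of SERPING1), factor I and CD55 hold the cascade in check, the liver makes most of the plasma proteins, and endometrial epithelium and stroma are also known to make several of them.

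Each value rests on a 60-base probe read from the scanner files, 5′ to 3′, and no probe shared 20 bases with another probe of the array. The first lines give whole probes for C3 and CFB, the components of the alternative convertase, and 30-base stretches for genes that changed with age or varied most. Capitals mark the letters AATAAA, those of the common polyadenylation signal, which 12.8% of all 60-base probes held. They start at base 55 of the SERPING1 probe and at base 4 of the CFD probe, and a match is a description of the letters, not of a site in use.
C3: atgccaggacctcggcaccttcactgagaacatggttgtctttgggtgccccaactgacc
CFB: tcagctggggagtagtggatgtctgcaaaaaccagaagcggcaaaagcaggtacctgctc
C7: atactgtctctgtattgttctgaccctggt
C1S: tagataacactatgggtggggcactcctat
SERPING1: tgttcaagttcaccagactctacaAATAAA
CFD: agcAATAAAgtcatccactcctgcatctgg
The C7, C1S and CFD stretches are bases 1 to 30 of their probes and the SERPING1 stretch is bases 31 to 60. In RefSeq's annotation of the rhesus assembly T2T-MMU8v2.0, C1S and C1R are neighbors, and the neighbor of CFB is C2. The arrays were designed on another build, so no coordinates are given.

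The first question was how these genes changed between GD100 and GD165. In control uteri 4 of the 9 genes were higher at GD165, CFB, C7, SERPING1 and C1S, and in BPA-exposed uteri 3 were, CFB, C7 and SERPING1. limma was fitted to all probes, and a probe was called at a Benjamini-Hochberg adjusted p below 0.01. By this rule 6.32% of all probes were called higher in controls and 4.82% in BPA-exposed fetuses, and 11.5% and 9.68% were called in either direction. None of the 9 genes (0) was called lower in either comparison, where 5.2% and 4.86% of all probes were. At an unadjusted p below 0.05, 8 of the 9 genes passed in controls (33.1% of all probes) and 6 in BPA-exposed fetuses (34.5%). All 9 estimates lay above 0 in both comparisons, where 50.5 and 44.7% of all probes did. The median log2 difference of the 9 genes was 0.82 in controls and 0.86 in BPA-exposed fetuses, beside 0.005 and −0.047 over all probes. The control and BPA-exposed comparisons share no animals, but limma took the spread of each probe from all arrays together. Some slides also held arrays of both comparisons. The adjusted p of one comparison is therefore not independent of that of the other.

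**Figure D1:**
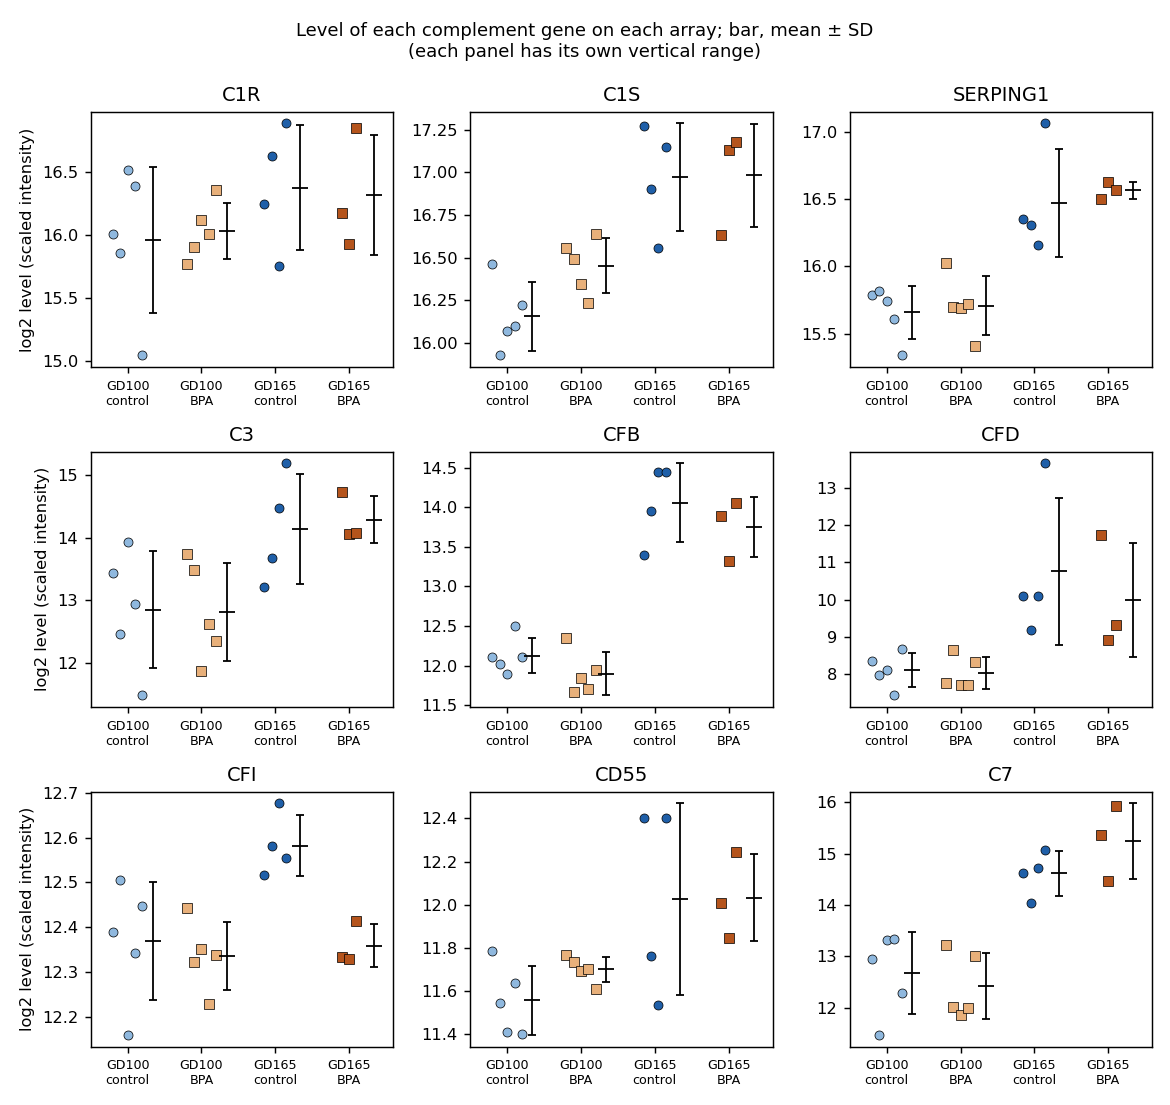
Level of each of the 9 genes on each array, as log2 intensity scaled between arrays (vertical axis, with its own range in each panel), for GD100 and GD165 control (circles) and BPA-exposed (squares) fetuses; each point is 1 fetus and the bar beside each group is the mean ± SD (n = 5, 5, 4 and 3). In the panels of C7, CFB, CFD and SERPING1 all 7 points at GD165 lie above the 10 points at GD100, whereas the points of C1R and CFI overlap across ages when both treatments are pooled.

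In the classical route, C1S encodes the protease that cleaves C4 and C2. Its log2 level was 16.46, 15.93, 16.07, 16.10 and 16.22 in GD100 controls and 17.27, 16.90, 16.56 and 17.15 in GD165 controls. These groups of 5 and 4 arrays did not overlap. C1S rose by 0.82 ± 0.16 on the log2 scale (SE from the spread over all 17 arrays, limma adjusted p = 0.002). In BPA-exposed fetuses C1S was at 16.56, 16.49, 16.35, 16.23 and 16.64 at GD100 and 16.63, 17.13 and 17.18 at GD165. The lowest GD165 array fell just under the highest GD100 array, and the log2 difference of 0.53 ± 0.17 (SE) missed the threshold (limma adjusted p = 0.040). With the spread estimated from the compared control groups alone, the adjusted p of C1S in controls was 0.012.

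C1R, which encodes the protease that activates C1s, had high levels and overlapping groups. It was at 16.01, 15.85, 16.52, 16.39 and 15.04 in GD100 controls and 16.24, 16.63, 15.75 and 16.89 in GD165 controls. The single low array, GD100 control replicate 5, was also the lowest of the 17 arrays for C3 and SERPING1. The log2 difference between ages was 0.41 (95% interval −0.21 to 1.03, limma adjusted p = 0.357) in controls and 0.29 (−0.39 to 0.96, adjusted p = 0.564) in BPA-exposed fetuses. Without GD100 control replicate 5 the difference in controls was 0.18, without GD165 control replicate 6 it was 0.24 and without GD165 control replicate 5 it was 0.62. In BPA-exposed fetuses it was 0.020 without GD165 BPA replicate 5 and 0.48 without GD165 BPA replicate 4. The intervals over all arrays hold both no difference and differences of the size measured for C1S.

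SERPING1 encodes C1 inhibitor, the serpin that blocks C1r and C1s. Its log2 level ran from 15.34 to 15.81 in GD100 controls and was 16.36, 16.31, 16.16 and 17.06 in GD165 controls. Among BPA-exposed fetuses the range was 15.40 to 16.03 at GD100, and the values were 16.50, 16.63 and 16.57 at GD165. Every array at GD165 was above every array at GD100, and the gene rose by 0.81 ± 0.17 in controls (SE, limma adjusted p = 0.003) and by 0.86 ± 0.18 in BPA-exposed fetuses (adjusted p = 0.004). The call in BPA-exposed fetuses was lost when GD100 BPA replicate 3 or 5 or GD165 BPA replicate 3, 4 or 5 was left out, with adjusted p from 0.010 to 0.022 and log2 differences of 0.78 to 0.89. The call in controls held without any of the 17 arrays.

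C3 is the protein on which all routes converge. Its log2 level was 13.44, 12.47, 13.93, 12.94 and 11.49 in GD100 controls and 13.21, 13.67, 14.48 and 15.18 in GD165 controls. BPA-exposed fetuses had levels of 13.74, 13.49, 11.87, 12.62 and 12.35 at GD100 and 14.72, 14.05 and 14.08 at GD165. C3 spanned 3.69 log2 units over the 17 arrays, and the control groups overlapped while the BPA-exposed groups did not. The log2 difference was 1.28 ± 0.51 in controls (SE, limma adjusted p = 0.088) and 1.47 ± 0.55 in BPA-exposed fetuses (adjusted p = 0.072), neither past the threshold. GD165 control replicate 6 had the highest C3 of all arrays, and without it the difference in controls was 0.93.

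CFB encodes factor B, the protease subunit of the alternative convertase, and it had the smallest adjusted p of the 9 genes in both comparisons of ages. Its log2 level was 12.11, 12.02, 11.90, 12.50 and 12.10 in GD100 controls and 13.40, 13.95, 14.44 and 14.44 in GD165 controls. BPA-exposed fetuses were at 12.35, 11.66, 11.84, 11.70 and 11.94 at GD100 and 13.89, 13.32 and 14.05 at GD165. The lowest array at GD165 was 13.32 and the highest at GD100 was 12.50. CFB rose 3.82-fold in controls (log2 difference 1.94 ± 0.22 SE, limma adjusted p = 3.69e-05) and 3.62-fold in BPA-exposed fetuses (1.85 ± 0.24, adjusted p = 1.74e-04). Both calls held under all 17 other settings tried and without any of the 17 arrays.

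CFD encodes factor D, the protease that cleaves factor B, and is known as adipsin from adipose tissue. Its log2 level was 8.34, 7.97, 8.11, 7.42 and 8.66 in GD100 controls and 10.10, 9.18, 10.08 and 13.68 in GD165 controls. In BPA-exposed fetuses it was 7.74, 8.63, 7.69, 7.70 and 8.33 at GD100 and 11.73, 8.91 and 9.32 at GD165. All 7 arrays at GD165 were above the 10 at GD100, but the spread at GD165 was wide, with an SD of 1.99 in controls and 1.53 in BPA-exposed fetuses. The log2 difference was 2.66 ± 0.74 in controls (SE), without passing the threshold (limma adjusted p = 0.018), and 1.97 ± 0.80 in BPA-exposed fetuses (adjusted p = 0.096). Both sizes rested on the highest array, since the difference was 1.69 (adjusted p = 0.039) without GD165 control replicate 6 and 1.10 (adjusted p = 0.401) without GD165 BPA replicate 3. Without the lowest GD165 control, replicate 3, it was 3.19 and passed the threshold (adjusted p = 0.009). The adipocyte marker FABP4 was at 14.86 on the control array with the highest CFD, against 10.19 to 11.15 on the other GD165 control arrays, and at 11.64, 9.43 and 11.06 on the BPA-exposed arrays in the order given for CFD. Only 3 of the 7 adipocyte markers of the list had a probe, FABP4, LPL and PPARG. Their mean level per array was 7.66 to 8.22 in GD100 controls and 7.82 to 8.86 in GD100 BPA-exposed fetuses. At GD165 it was 8.76 to 10.43 in controls and 8.40 to 9.14 in BPA-exposed fetuses. FABP4 moved most between ages, and in each comparison 1 of the 3 had an estimate below 0. The log2 differences ran from −0.12 to 3.57 (median 0.50) in controls and from −0.16 to 1.47 (median 0.05) in BPA-exposed fetuses. The part of these markers in the CFD levels was not tested.

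CFI encodes factor I, the protease that inactivates C3b and C4b. It was the least variable member, within 0.52 log2 units over the 17 arrays. It was at 12.39, 12.51, 12.16, 12.34 and 12.45 in GD100 controls and 12.52, 12.58, 12.68 and 12.55 in GD165 controls, and the groups did not overlap. The log2 difference was 0.21 ± 0.08 (SE, limma adjusted p = 0.060). In BPA-exposed fetuses CFI was at 12.44, 12.32, 12.35, 12.23 and 12.34 at GD100 and 12.33, 12.33 and 12.41 at GD165, with a log2 difference of 0.02 (95% interval −0.15 to 0.20).

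CD55 encodes decay-accelerating factor, a membrane protein that dissociates convertases on the cell's own surface. It ran from 11.40 to 11.78 in GD100 controls and was 12.40, 11.76, 11.54 and 12.40 in GD165 controls. A pair of GD165 control arrays thus stood above all GD100 arrays while the other two lay among them, and the log2 difference was 0.47 ± 0.16 (SE, limma adjusted p = 0.051). Without GD165 control replicate 5 it was 0.63 and passed the threshold (adjusted p = 0.007). In BPA-exposed fetuses the arrays ran from 11.61 to 11.77 at GD100 and were 12.01, 11.84 and 12.25 at GD165, without overlap (0.33 ± 0.18, adjusted p = 0.195).

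C7 encodes a component of the membrane attack complex. Its log2 level was 12.96, 11.47, 13.32, 13.34 and 12.29 in GD100 controls and 14.63, 14.03, 14.73 and 15.08 in GD165 controls. In BPA-exposed fetuses it was 13.22, 12.02, 11.85, 12.00 and 13.01 at GD100 and 15.36, 14.47 and 15.92 at GD165. No array at GD165 overlapped with GD100. C7 rose 3.85-fold in controls (log2 difference 1.94 ± 0.42 SE, limma adjusted p = 0.004) and 7.11-fold in BPA-exposed fetuses (2.83 ± 0.46, adjusted p = 7.57e-04). The call in controls was lost without GD100 control replicate 5 or GD165 control replicate 1, 5 or 6, with log2 differences of 1.79 to 1.94 and adjusted p of 0.011 to 0.018.

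**Figure D2:**
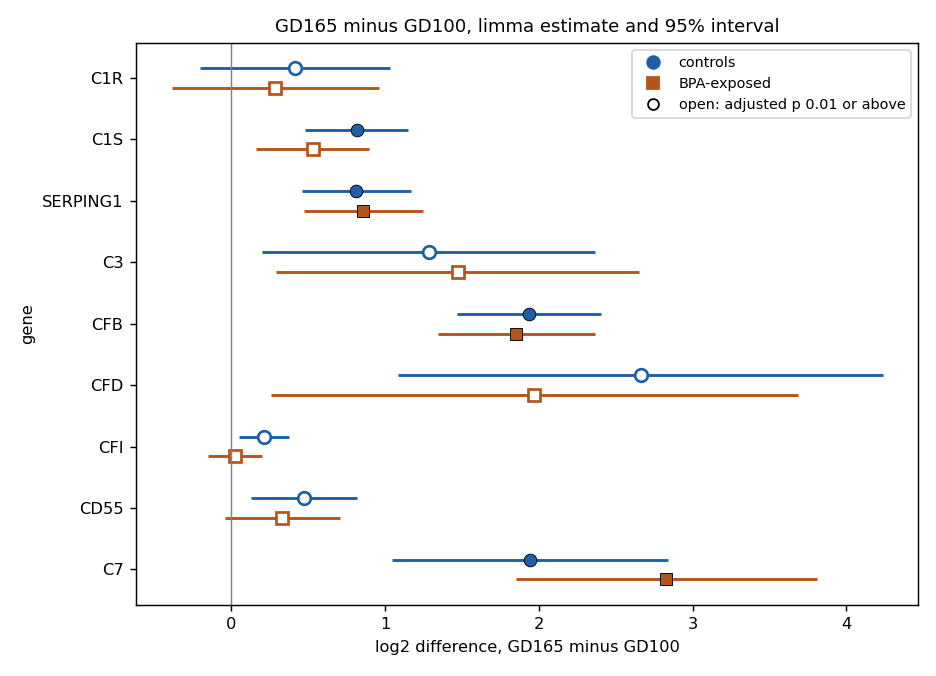
Log2 difference between GD165 and GD100 (horizontal axis) for each of the 9 genes in controls (circles) and BPA-exposed fetuses (squares), with limma's 95% interval; filled symbols passed an adjusted p of 0.01. CFB, C7 and SERPING1 are filled in both comparisons, C1S in controls, and the intervals of C1R reach below 0 in both.

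Groups that do not overlap were counted without a model. In 6 of the 9 genes all GD165 controls were above all GD100 controls (C1S, SERPING1, CFB, CFD, CFI and C7), where 9.51% of all probes behaved so. In BPA-exposed fetuses the count was also 6 (SERPING1, C3, CFB, CFD, CD55 and C7), against 11.7% of all probes. Groups that do not overlap always have the smallest p that an exact two-sided permutation test over the arrays can give. It was 0.0159 for 4 against 5 arrays and 0.0357 for 3 against 5, and adds nothing to these counts. After adjustment over the 36 tests of 9 genes in 4 comparisons the values were 0.0952 and 0.0989. Only slides 3 and 5 held controls of both ages, 1 array of each, and only slide 2 held both ages of BPA-exposed fetuses. The GD165 array was the higher one in all 3 slides for 8 of the 9 genes, and for C3 in slides 5 (1.72) and 2 (1.73) but not 3 (−0.26). The share of all probes that did so was not counted, so this count cannot be judged against the whole array. These arrays are also among those compared above. For CFB the within-slide log2 differences were 2.05, 1.30 and 2.11, and for C7 0.72, 2.35 and 2.91. With slide as a fixed block CFB remained called in both comparisons, C1S in controls, and C7 and SERPING1 in neither (adjusted p = 0.011 to 0.045).

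The second question was whether maternal BPA changed these genes. At GD100 no gene (0 of 9) was called, and 0% of the 20217 probes were. At GD165 the count was again 0 of 9, with 0% of probes. At an unadjusted p below 0.05, 0 of 9 genes passed at GD100 (3.79% of all probes) and 1 of 9 at GD165 (8.61% of all probes), which was CFI. limma was the only tool run over all probes, and exact permutation tests were made for the 9 genes alone.

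At GD100 the estimates ran from a log2 difference of −0.25 (C7) to 0.30 (C1S), and the 95% interval held 0 for all 9 genes. C1S was higher in BPA-exposed fetuses on average, 16.45 ± 0.16 (SD, n = 5) against 16.15 ± 0.20 (SD, n = 5), with overlapping arrays. Its log2 difference was 0.30 (95% interval −0.02 to 0.61, limma adjusted p = 0.9999), and an exact two-sided permutation test over the 10 arrays gave p = 0.0317 (0.0989 after adjustment over 36 tests). For CFI and CD55, whose replicates were tight, the intervals ran from −0.19 to 0.12 and from −0.18 to 0.47. For CFD and C3 they ran from −1.57 to 1.40 and from −1.06 to 0.98, so these 95% intervals hold differences of up to about that size in either direction.

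At GD165 the estimates ran from −0.77 (CFD) to 0.63 (C7). CFI was lower in all 3 BPA-exposed fetuses, at 12.33, 12.33 and 12.41, than in the 4 controls, at 12.52 to 12.68, with a log2 difference of −0.22 (95% interval −0.41 to −0.04). This did not survive adjustment over all probes (limma adjusted p = 0.516), an exact two-sided permutation test gave p = 0.0571, the smallest that 3 against 4 arrays allow, and 7.31% of all probes had groups that did not overlap. Of the other genes, CFB was 0.31 lower (−0.84 to 0.23) and C7 0.63 higher (−0.39 to 1.65) in BPA-exposed fetuses. C1S, CD55 and C1R had estimates within 0.06 of 0, with intervals of −0.37 to 0.39, −0.39 to 0.40 and −0.76 to 0.65. The interaction, which asks whether the BPA difference itself differed between ages, was called for 0 of 9 genes and for 0% of probes. Its largest estimate was that of C7, 0.89 (95% interval −0.44 to 2.21), and the smallest adjusted p among the 9 was 0.715.

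**Figure D3:**
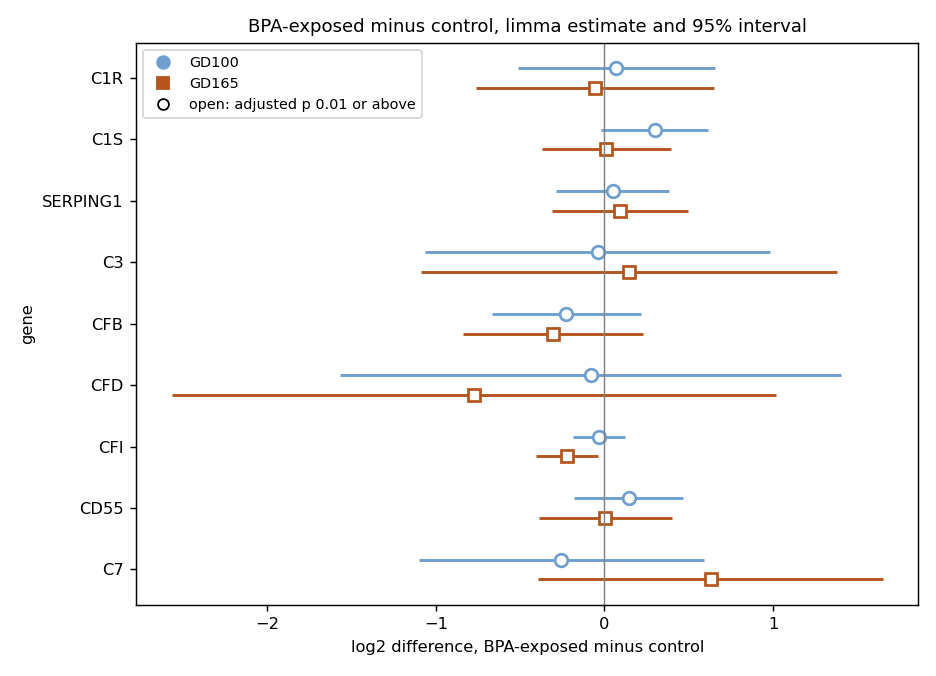
Log2 difference between BPA-exposed and control fetuses (horizontal axis) for each of the 9 genes at GD100 (circles) and GD165 (squares), with limma's 95% interval; every symbol is open because none passed an adjusted p of 0.01. The intervals cross 0 except that of CFI at GD165, which runs from −0.41 to −0.04.

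A list of 42 other complement genes was read beside the 9, and 39 had a probe (C4A, CPN2 and C5AR1 had none by name). Of these 28 were well above background on all 17 arrays, 8 on some and 3 on none. In controls 4 of the 39 were higher at GD165, C4BPA, C2, FCN3 and ITGAX, where 6.32% of all probes were, and in BPA-exposed fetuses 4 were, C4BPA, C2, FCN3 and C1QB, against 4.82% of all probes. None (0) was called lower in either comparison, and 3 genes were called in both. At an unadjusted p below 0.05, 13 of the 39 passed in controls and 17 in BPA-exposed fetuses, against 33.1% and 34.5% of all probes, so the count in controls was at the share of the whole array. The median log2 difference of the 39 was 0.29 in controls and 0.30 in BPA-exposed fetuses, beside 0.005 and −0.047 over all probes.

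Among recognition molecules, FCN3 (ficolin-3, which starts the lectin route) kept its call in both comparisons under all 17 other settings and without any of the 17 arrays. It also had 1 probe, so the limits given for CFB hold here too. It ran from 9.80 to 11.23 in GD100 controls and from 12.01 to 12.53 in GD165 controls, and rose by 1.54 ± 0.25 (SE, limma adjusted p = 4.87e-04). In BPA-exposed fetuses it rose by 1.68 ± 0.27 (adjusted p = 6.92e-04). The chains of C1q had estimates of 0.60 (C1QA), 0.87 (C1QB) and 0.50 (C1QC) in controls, with adjusted p of 0.032, 0.015 and 0.153. In BPA-exposed fetuses they were 0.80, 1.07 and 0.62, of which C1QB passed (adjusted p = 0.009). That call was lost without any of 11 of the 17 arrays, with adjusted p of up to 0.044. The other 5 recognition genes had no call, with COLEC10 closest in controls (1.11 ± 0.28, adjusted p = 0.011).

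C2, the classical counterpart and genomic neighbor of CFB, was the 1 of 4 other proteases called. It ran from 11.05 to 12.35 in GD100 controls and from 12.66 to 13.79 in GD165 controls, a rise of 1.64 ± 0.36 (SE, limma adjusted p = 0.004). In BPA-exposed fetuses it rose by 1.75 ± 0.39 (adjusted p = 0.006). In both comparisons 5 of the 17 arrays, left out singly, ended the call, with adjusted p of up to 0.020 and 0.035. C4B and C5 had no call. Nor had any of the 5 other genes of the terminal pathway. C8B and C8G, well above background on all 17 arrays, had estimates of 0.12 and 0.12 in controls and −0.24 and −0.36 in BPA-exposed fetuses. C6 and C9 were well above background on 12 and 14 arrays and C8A on none (0), so their differences are not given.

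Of 6 fluid-phase regulators, 1 was called in each comparison. C4BPA, the alpha chain of C4b-binding protein, had a range of 8.01 log2 units over the 17 arrays. It was well above background on all 7 arrays at GD165, on none of the 5 GD100 BPA-exposed arrays and on 1 of the 5 GD100 control arrays (replicate 5, at 5.23, where the other four lay between 1.21 and 1.71). At GD165 it was at 9.23, 5.96, 4.11 and 7.83 in controls and 5.47, 7.31 and 5.84 in BPA-exposed fetuses. C4BPA was 12.9-fold higher at GD165 in BPA-exposed fetuses when the lowest signal well above background on each GD100 array stood in for its level there (mean 2.52). This is not a strict lower bound, since some probes not well above background had higher signals. ALB, for example, was at 3.78 on GD100 BPA replicate 4. The limma test was of the log2 difference without that stand-in, 4.55 (adjusted p = 0.005). This difference rests on signals not well above background on all 5 GD100 BPA-exposed arrays. That call was lost without any of 8 of the 17 arrays, with adjusted p of up to 0.035. In controls the log2 difference was 4.56 ± 0.92 (SE, adjusted p = 0.003), which rests on signals not well above background in 4 of the 5 GD100 arrays. Without GD165 control replicate 6 the difference in controls was 4.21 with an adjusted p of 0.012.

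None (0) of the 5 other membrane regulators was called. CD46 had log2 differences of 0.19 and 0.15 in the control and BPA-exposed comparisons, and CD59, well above background on only 8 arrays, had 0.69 and 0.63 (adjusted p = 0.055 and 0.103). Of 8 receptors, the integrin subunit ITGAX was called in controls alone (0.71 ± 0.16, SE, limma adjusted p = 0.005), a call lost without any of 8 of the 17 arrays, and its estimate in BPA-exposed fetuses was 0.50 (adjusted p = 0.054). None (0) of the 39 genes was called between BPA-exposed and control fetuses at either age, where 0% of all probes were. At an unadjusted limma p below 0.05, 1 of them passed at GD100 (3.79% of all probes) and 4 at GD165 (8.61% of all probes).

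**Figure D4:**
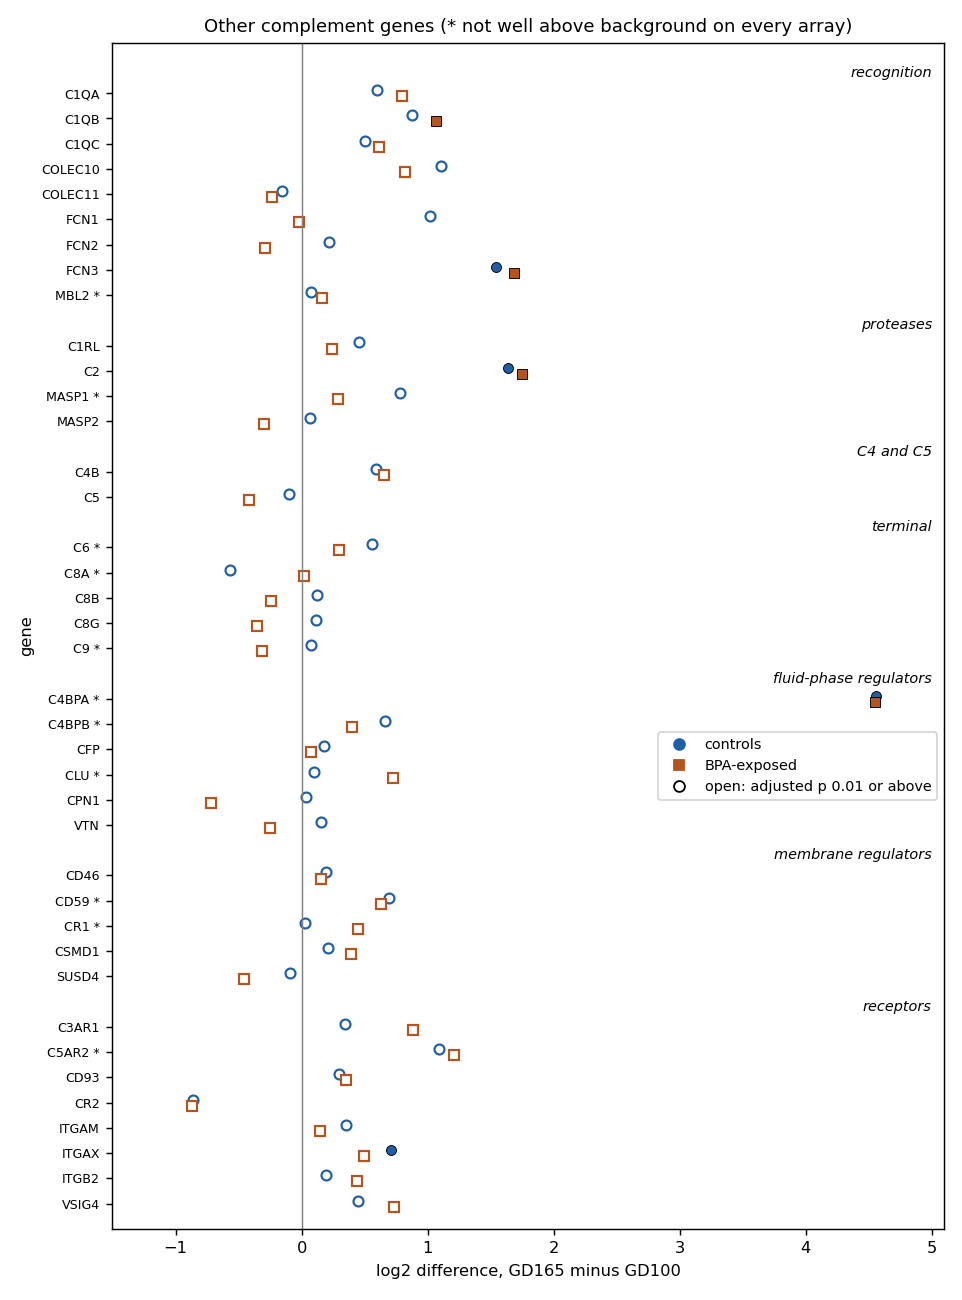
Log2 difference between GD165 and GD100 (horizontal axis) for 39 other complement genes grouped by role, in controls (circles) and BPA-exposed fetuses (squares); filled symbols passed an adjusted p of 0.01 and an asterisk marks genes not well above background on every array. C4BPA lies far to the right of the rest, followed by C2 and FCN3.

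Marker lists of other cell types and responses were read between the ages, where 6.32% of all probes were called higher in controls and 4.82% in BPA-exposed fetuses. Of 8 epithelial markers with a probe (of 10), 6 were higher at GD165 in controls and 4 in BPA-exposed fetuses. Their mean log2 level per array was 10.12 to 10.98 in GD100 controls, 10.27 to 10.91 in GD100 BPA-exposed, 11.35 to 11.67 in GD165 controls and 10.88 to 11.38 in GD165 BPA-exposed fetuses. Of 12 interferon-response genes (of 14), 5 were higher in each comparison, and the mean level was 9.84 to 10.55, 9.79 to 10.27, 10.44 to 11.11 and 10.59 to 11.24 in the same order of groups. Of 6 glucocorticoid-response genes (of 10), 3 were higher in controls and 4 in BPA-exposed fetuses, with mean levels of 11.48 to 11.86, 11.54 to 11.86, 12.56 to 13.64 and 12.86 to 13.20. Of 10 macrophage markers (of 12), 1 was called in each comparison, the antigen-presentation chain CD74, with mean levels of 8.97 to 9.77, 9.29 to 9.68, 9.99 to 10.18 and 9.55 to 10.51. Of 11 acute-phase genes, 4 were higher in controls, and 1 was higher and 1 lower in BPA-exposed fetuses. Of 8 endothelial and 8 lymphocyte markers 1 each was higher in each comparison, and of 8 neutrophil markers 2 in controls and 1 in BPA-exposed fetuses. Of 9 smooth muscle markers, all had estimates above 0 in both comparisons and 3 and 1 were called higher, with mean levels of 16.10 to 16.67, 16.22 to 16.51, 16.64 to 17.19 and 16.52 to 17.14. Of 8 skeletal muscle markers, all had estimates above 0 in both and 5 and 2 were called higher, with median log2 differences of 4.75 and 2.76. Of 9 stromal markers, 1 was called higher and 2 lower in controls, and 1 higher in BPA-exposed fetuses. The part of epithelium, muscle, stroma, interferon or glucocorticoid response and macrophages in the complement levels was not tested.

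Liver markers were read because the liver is the main source of plasma complement. Of 14 hepatocyte markers, 2 were called in controls (TTR and SERPINA1) and 1 in BPA-exposed fetuses (TTR). Estimates between ages lay above 0 for 10 markers and below 0 for 4 in controls. In BPA-exposed fetuses 6 lay above 0 and 8 below. The median log2 differences were 0.18 and −0.28, while those of TTR, the highest of the list, were 4.80 and 4.59. The mean level of the list was 4.85 to 5.23, 4.94 to 5.55, 5.35 to 5.83 and 5.24 to 5.79 in the same order of groups. Albumin (ALB) was at 2.92 to 3.99 on all 17 arrays and was well above background on 9 of them, with log2 differences between ages of 0.15 and −0.45. TTR was 4.73 on GD100 control replicate 5, the one GD100 array on which C4BPA was well above background, against 2.36 to 2.90 on the other four GD100 control arrays. The part of TTR-expressing cells in the C4BPA levels was not tested.

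Pairs of genes that act on each other were compared within an age, over 10 arrays at GD100 and 7 at GD165, each array taken as its deviation from the mean of its treatment group. Of 8 relations, none (0) passed after Benjamini-Hochberg adjustment. The closest was C3 with CFB at GD165, with Pearson's r = 0.79 (exact two-sided permutation p = 0.0258, adjusted 0.206) and Spearman's rho = 0.86 (exact permutation p = 0.0238, adjusted 0.190). Pearson's r was 0.56 without the 2 arrays farthest from the median of C3. At GD100 the same pair had r = 0.10 (permutation p = 0.783, n = 10, adjusted 0.783) and rho = −0.13 (permutation p = 0.734, adjusted 0.752).

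For the members called with age, the probes of most similar pattern over the 17 arrays were sought among 15177 named probes well above background on every array. For CFB these were HRASLS3 (Pearson's r = 0.967) and ARHGAP25 (0.966), for SERPING1 GIMAP8 (0.955) and PNPLA2 (0.954), for C1S MAFF (0.941) and NR4A1 (0.929), and for C7 ITIH3 (0.930) and RASL10A (0.927). The arrays fall into 2 ages, so these values describe mostly the shared difference between ages.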

How the data were processed

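Scanner files of 17 Agilent rhesus arrays were used. The values deposited are linear intensity values that the authors obtained with Agilent Feature Extraction 9.5 at its single-color defaults. That program subtracts background and removes spatial trends but puts no common scale on the arrays. The table of the whole series held the same deposited values (711467 of 711467 identical, tolerance 0). Here intensities were converted to log2, the mean of both spots of a probe was taken after control and outlier spots had been dropped, and arrays were aligned at their 75th percentiles, whose mean on the log2 scale was 12.62. The probes, 20217 in number, were tested two-sided in limma 3.58.1 (R 4.3.3; lmFit, then eBayes) with 4 groups, Benjamini-Hochberg adjustment over all of them and a threshold of 0.01, which is that of the methods, whose error-weighted ANOVA ran in other software. Exact permutation tests were made with scipy 1.17.1 under Python 3.11.15. The code was tested on simulated data.

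Groups came from the sample labels, 1 array per fetus, and the number of arrays limits the precision. Genes named are all 9 members, other complement genes past the threshold in any comparison of 2 groups, 5 more whatever their values (C1QA, C1QB, C1QC, CD46 and CD59), and members of marker lists that moved with them. C4B, C5, the other terminal components, COLEC10, PGR, FABP4 and the liver markers were named after their values were seen. Some complement genes are not reported here. The members and lists were chosen with earlier results of these data known. Alternatives were other background correction, scaling, filters, spots, error weights, priors, slide and replicate blocks, thresholds, the series table, the mean over a gene's probes, and each animal left out.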

Additional observations from a re-analysis of the deposited data

Results flagged for a closer look

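One value was flagged among the complement genes named, by a test for a single array far from the rest of its group, which chance alone flags in about 1 of 20 groups. C4BPA in GD100 control replicate 5 was at a log2 level of 5.23, while the other four GD100 controls lay between 1.21 and 1.71 and were not well above background. The gap to the nearest array was 0.877 of the group's whole range, and 54 groups of 4 or 5 arrays were looked at.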

How the results depend on the processing

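The calls of CFB held in every setting tried, some of which could hardly end a call. Between ages in controls, members called went from 4 to 1 with the compared groups only, to 2 with slide as a fixed block and to 2 with the replicate block, and other complement genes from 4 to 2, 2 and 1, and to 7 at a threshold of 0.05. At that threshold 4279 of all 20217 probes were called in controls, against 2328 at 0.01. In BPA-exposed fetuses, members went from 3 to 1 with slide as a fixed block, and other complement genes from 4 to 1 with the slide block, 1 with the replicate block and 2 without the 2 arrays high in skeletal muscle genes, an alternative chosen after seeing the data. Over all probes the replicate block called 515 higher and 443 lower in controls, against 1277 and 1051. Only 3 of 19 same-numbered pairs of arrays had r over 0.1 (median 0.027). The median r was −0.021 for the other pairs and 0.034 for pairs on 1 slide. Since arrays that shared a slide were also weakly correlated, this check cannot show whether replicate numbers pair the animals. Slide as a fixed block called 646 and 587 probes in controls and 243 and 269 in BPA-exposed fetuses, against 974 and 982, and the compared groups only called 622 and 550, and 585 and 591. In BPA-exposed fetuses no scaling moved the median of all probes from −0.047 to 0.134 and the calls to 1246 higher and 389 lower, and without the 2 muscle-high arrays 567 and 678 were called. The cause was not tested. With the error-model weights or normexp, C4BPA lost both calls (adjusted p of 0.217 and 0.385, and 0.011 and 0.101).

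Small differences changed sign. With slide as a fixed block these were, for BPA at GD100, C1R (−0.055) and SERPING1 (−0.085), for BPA at GD165, C1S (−0.21) and CD55 (−0.18), and between ages CFI in BPA-exposed fetuses (−0.022) and CD46 in controls (−0.040). With slide as a random block BPA at GD165 gave −0.014 for C1S and −0.0095 for CD55. The replicate block turned BPA at GD165 for C1R (0.087) and CFD (0.49), and no scaling turned C1R there (0.10). Without the 2 muscle-high arrays BPA at GD165 gave −0.23 for C1S, −0.011 for SERPING1 and −0.26 for CD55, and CFI between ages in BPA-exposed fetuses gave −0.0050. With normexp CD59 in BPA-exposed fetuses was −0.12. The r of C3 and CFB at GD100 was −0.11 with no scaling, and that of C3 and CFI at GD165 −0.12 with median scaling. The count of members with an exact p below 0.05 for BPA at GD100, which was 1 (C1S), was 0 with median scaling and 0 with no scaling.

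Leaving out 1 animal at a time gave 3 to 5 members called in controls and 2 to 3 in BPA-exposed fetuses, and 1 to 5 and 1 to 5 other complement genes. For BPA at GD100 the log2 differences ran from −0.38 to 0.23 (C3), −0.16 to 0.21 (C1R), −0.25 to 0.059 (CFD), −0.085 to 0.0014 (CFI) and −0.031 to 0.13 (SERPING1). For BPA at GD165 they ran from −0.16 to 0.50 (C3), −0.32 to 0.14 (C1R), −0.13 to 0.19 (C1S), −1.65 to 0.20 (CFD), −0.0096 to 0.29 (SERPING1) and −0.16 to 0.13 (CD55). CFI between ages in BPA-exposed fetuses ran from −0.0050 to 0.049. The r ran at GD100 from −0.26 to 0.015 (C1R and C1S), −0.43 to 0.11 (SERPING1 and C1S), −0.31 to 0.34 (C3 and CFB) and −0.65 to 0.0032 (C3 and CFI), and at GD165 from 0.23 to 0.90 (SERPING1 and C1S), 0.60 to 0.92 (C3 and CFB) and −0.24 to 0.63 (C3 and CFI).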
